A study of Mus musculus with 2 samples.

Results

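The mitochondrial genome of the mouse encodes 7 subunits of respiratory complex I, and all 7 genes (mt-Nd1, mt-Nd2, mt-Nd3, mt-Nd4, mt-Nd4l, mt-Nd5 and mt-Nd6) were found by symbol among the 55357 genes of the tables. They were measured in single cells of the small intestine, from a preparation that the study describes as crypt-enriched epithelium. The adip fl/fl mice gave the control library and the adip fl/fl-Villi-Cre mice (Adipfl/flpVilli-CreT in the labels) the Cre library. Both groups carry floxed alleles of the adiponectin gene Adipoq, and the Cre recombinase added in the second is driven by the villin promoter, which is active in epithelial cells of the gut. The mice were 8-week-old male littermates that were pooled, and each genotype has 1 library. Differences between genotypes and differences between libraries therefore cannot be told apart, no test was possible, and every interval below is an exact 95% interval that covers counting error only.

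Complex I is the entry point of the respiratory chain. It passes electrons from NADH to ubiquinone and pumps protons across the inner mitochondrial membrane, and its membrane arm is built around the subunits that the mitochondrial genome encodes. ND1 lies beside the ubiquinone site, ND2, ND4 and ND5 are antiporter-like proton pumps, ND3 carries a loop at the joint between the membrane and matrix arms, and ND4L and ND6 are small membrane subunits between ND1, ND3 and the pumps. The genes of ND1 to ND5 and ND4L are read from a long common precursor of the same strand that is cut at transfer RNAs, so that their amounts do not follow separate promoters, whereas mt-Nd6 is read from the opposite strand. The matrix arm and the many accessory subunits are made from nuclear genes.

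There were 9791 barcodes with 42150623 UMIs (unique molecular identifiers, each standing for a transcript molecule) in the control library and 11838 barcodes with 63370798 UMIs in the Cre library. More than 500 genes were detected in 7739 and 9818 of them, of which 3069 and 5555 had less than 25% of their UMIs from mt- genes. The other 4670 and 4263, at 25% or more, were kept apart as barcodes above the limit. Epcam, a marker of epithelium, stood at 2903 and 3110 CPM (UMIs scaled to a total of 1000000) below the limit. Adipoq had 1 UMI in the control library and 0 in the other, too few to check the labels, and 22 barcode sequences with more than 500 genes occurred in both libraries.

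All 7 members lie on chromosome M of GRCm38. mt-Nd3 takes up chrM:9459-9806 on the plus strand and overlaps no other annotated gene, whereas mt-Nd4l (chrM:9877-10173) shares 7 bases with mt-Nd4 (chrM:10167-11544), and mt-Nd5 (chrM:11742-13565) shares 14 bases with mt-Nd6 (chrM:13552-14070, minus strand). Several members have annotated copies in the nuclear genome, which makes their counts uncertain. Bases 1 to 345 of the 348 of mt-Nd3 are matched at 99.71% identity by the unprocessed pseudogene Gm28438 (chr1:24612775-24613119, minus strand), and the only substitution is T3C, counted from 1 at the 5′ end of mt-Nd3 with the base of mt-Nd3 first. The first 60 bases of both are shown because they hold that only difference, in capitals (sequences and positions from GENCODE M21 transcripts).

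mt-Nd3: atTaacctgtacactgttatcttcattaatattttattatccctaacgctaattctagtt
Gm28438: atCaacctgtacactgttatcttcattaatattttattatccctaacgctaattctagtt

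The kit reads transcripts from their 3′ side, and the last 60 bases of mt-Nd3 are shown for that reason. The capitals mark a run of A, 5 bases long and 21 bases before the end. No run in mt-Nd3 is longer, and it is the last of that length. Runs in mt-Nd1 (6), mt-Nd2 (8), mt-Nd4 (7) and mt-Nd5 (7) are longer but lie further from the end. Up to base 345 the bases shown are the same in Gm28438.

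mt-Nd3 end: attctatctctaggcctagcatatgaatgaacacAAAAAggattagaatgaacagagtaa

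The study also measured mt-Nd3 by quantitative PCR, in isolated ileum crypts of both genotypes, and described its expression as elevated in adip fl/fl-Villi-Cre mice. Its primers match bases 85 to 104 and, on the opposite strand, 181 to 200 of mt-Nd3, and each has an exact match in both mt-Nd3 and Gm28438 and in no other annotated transcript.

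mt-Nd3 forward primer: ctgtactcagaaaaagcaaa
mt-Nd3 reverse primer: aggtcaaataatagaaatgt

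In the other members, Gm10222 matches mt-Nd4l at 100% over 294 of 297 bases, and Gm28439 matches mt-Nd4 at 100% over its first 876 of 1378 bases, both in the same block of chromosome 1. The best copy of mt-Nd2, Gm13339, is 96.67% identical over 510 of 1038 bases. The copies of mt-Nd5 and mt-Nd6 reach 95.18% and 93.64%, and mt-Nd1 had no annotated copy. Few UMIs were assigned to the copy of mt-Nd3. Gm28438 had 17 and 50 UMIs below the limit and 20 and 22 above it, or 0.12 and 0.0728 for every 100 UMIs of mt-Nd3 below it. Reads that matched both places and were not counted for either are not among these UMIs. Whether the values of mt-Nd3 below differ in transcript level or in how reads of the near-identical sequences were assigned was therefore not tested.

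Levels were compared as the share of a gene among the UMIs of all 13 mitochondrial protein-coding genes, of which 1126942 and 2342606 were counted below the limit. Together the 7 complex I genes made up 54.67% (54.57 to 54.76) of these UMIs in the control library and 55.25% (55.19 to 55.31) in the Cre library. Per kilobase of gene, mt-Nd1 had the highest share of the members (19.39% per kb in the control library), followed by mt-Nd4 (13.18), mt-Nd2 (10.61), mt-Nd3 (3.621), mt-Nd5 (2.831), mt-Nd6 (0.8684) and mt-Nd4l (0.1936). The order in the Cre library was the same, but mt-Nd3, at 8.425% per kb, stood close under mt-Nd2 at 9.29. Above the limit mt-Nd3 and mt-Nd5 changed places in the control library, at 3.408 and 3.448% per kb. A UMI from the 3′ side stands for a molecule whatever its length, so division by length raises short genes such as mt-Nd3. Without it, mt-Nd3 lay far under mt-Nd2 in the Cre library below the limit, with shares of 2.932 and 9.643%. In the control library it lay under mt-Nd5, with 1.26 and 5.164%. Neither order allows for reads shared with nuclear copies. mt-Nd1 had no such copy, whereas mt-Nd3 and mt-Nd4l are matched over 99.1 and 99% of their length. mt-Nd6, also low, has a copy of only 93.64% identity. The part of the copies in these orders was not tested.

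mt-Nd3 had the largest difference between the libraries among the 13 genes. Its share below the limit was 1.26% (1.239 to 1.281, 14197 UMIs) in the control library and 2.932% (2.911 to 2.954, 68695 UMIs) in the Cre library, a fold of 2.328 (2.286 to 2.37). mt-Nd2, one of the proton pumps, differed the other way, with 11.01% (10.95 to 11.07) and 9.643% (9.605 to 9.68), a fold of 0.8757 (0.8696 to 0.8818). Neither difference is within counting error, but without a further library of either genotype neither can be set against the spread between libraries.

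The other 5 members differed less, or rested on few UMIs. mt-Nd1 had a fold of 1.046 (1.041 to 1.052), mt-Nd4 of 0.9908 (0.9856 to 0.9961) and mt-Nd5 of 0.9271 (0.9178 to 0.9364). mt-Nd6, with a share of 0.4507 and 0.4285%, had a fold of 0.9509 (0.9192 to 0.9837), and mt-Nd4l, with 648 and 1031 UMIs, had 0.7654 (0.6931 to 0.8457). Counted per all UMIs of the cells, the direction turned for mt-Nd4 at 1.082 (1.076 to 1.088), for mt-Nd5 at 1.012 (1.002 to 1.023) and for mt-Nd6 at 1.038 (1.004 to 1.074). As the 13 shares sum to the whole, a higher share of mt-Nd3 lowers the others a little. Without mt-Nd3, the other 6 members together had a fold of 0.9796 (0.9766 to 0.9826). A lower share was also counted for mt-Atp6 (fold 0.7994) and mt-Co3 (0.8366), which lie just before mt-Nd3 in the genome. The same holds for mt-Co2 (0.1181 and 0.1001%), which lies further away. In the same block of chromosome 1 as the copy of mt-Nd3, these genes also have copies with 100% identity. They cover 99.6% of mt-Atp6, 99.9% of mt-Co3 and 99.6% of mt-Co2. Whether the assignment of reads had a part in these shares, or in the total of the 13 genes, was not tested. A higher share was counted for mt-Atp8 (1.158), with a fold of 1.482 (1.303 to 1.691) in stem-like cells.

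**Figure D1:**
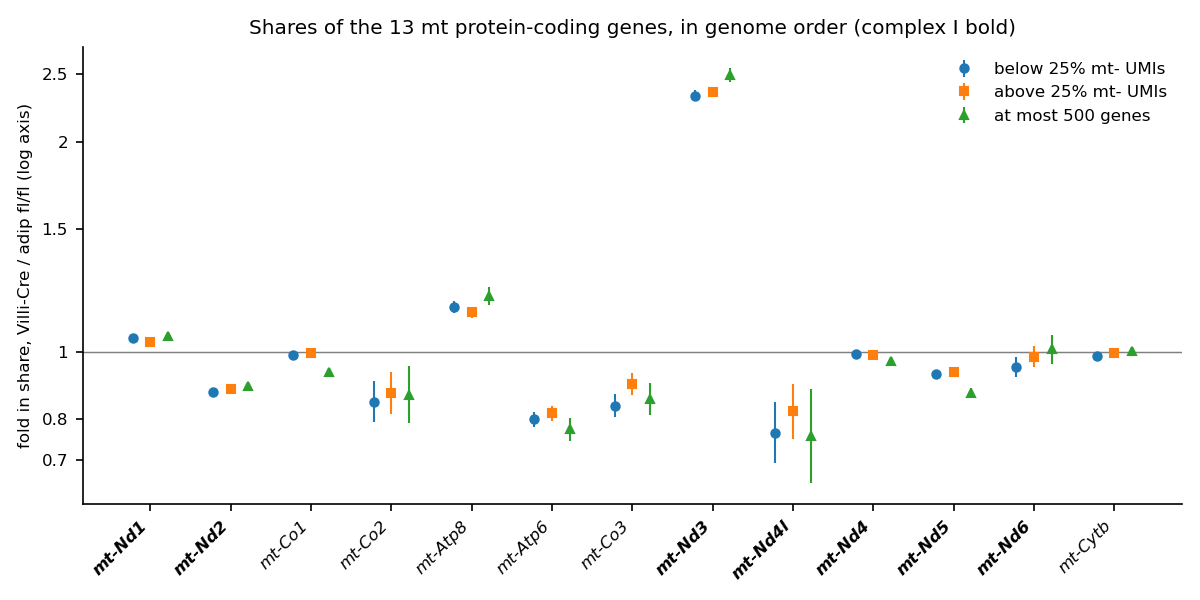
Fold of the share of each mitochondrial protein-coding gene (adip fl/fl-Villi-Cre over adip fl/fl, log axis), in genome order with the complex I genes in bold; circles are cells below 25% mt- UMIs, squares barcodes above it, triangles barcodes with at most 500 genes, and bars exact 95% intervals of counting error. mt-Nd3 stands at 2.328, 2.358 and 2.495, and the other 12 genes lie between 0.7573 and 1.202.

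The difference in mt-Nd3 was found in every cell class that could be compared. Cells below the limit were clustered without mt- genes and named from markers, which gave 10 named classes and 3 unnamed clusters with at least 20 cells in each library. The share of mt-Nd3 ran from 0.8982 to 1.47% over these 13 classes in the control library and from 2.136 to 3.44% in the Cre library, and the ranges do not overlap. The fold lay between 2.067 in tuft-like cells and 2.477 in goblet-like cells, with a median of 2.288 and an interval above 1 in 13 of 13 classes. In the 20 single clusters it lay between 2.059 (1.654 to 2.573, cluster 11) and 3.404 (2.436 to 4.877, cluster 13), both T cell-like.

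**Figure D2:**
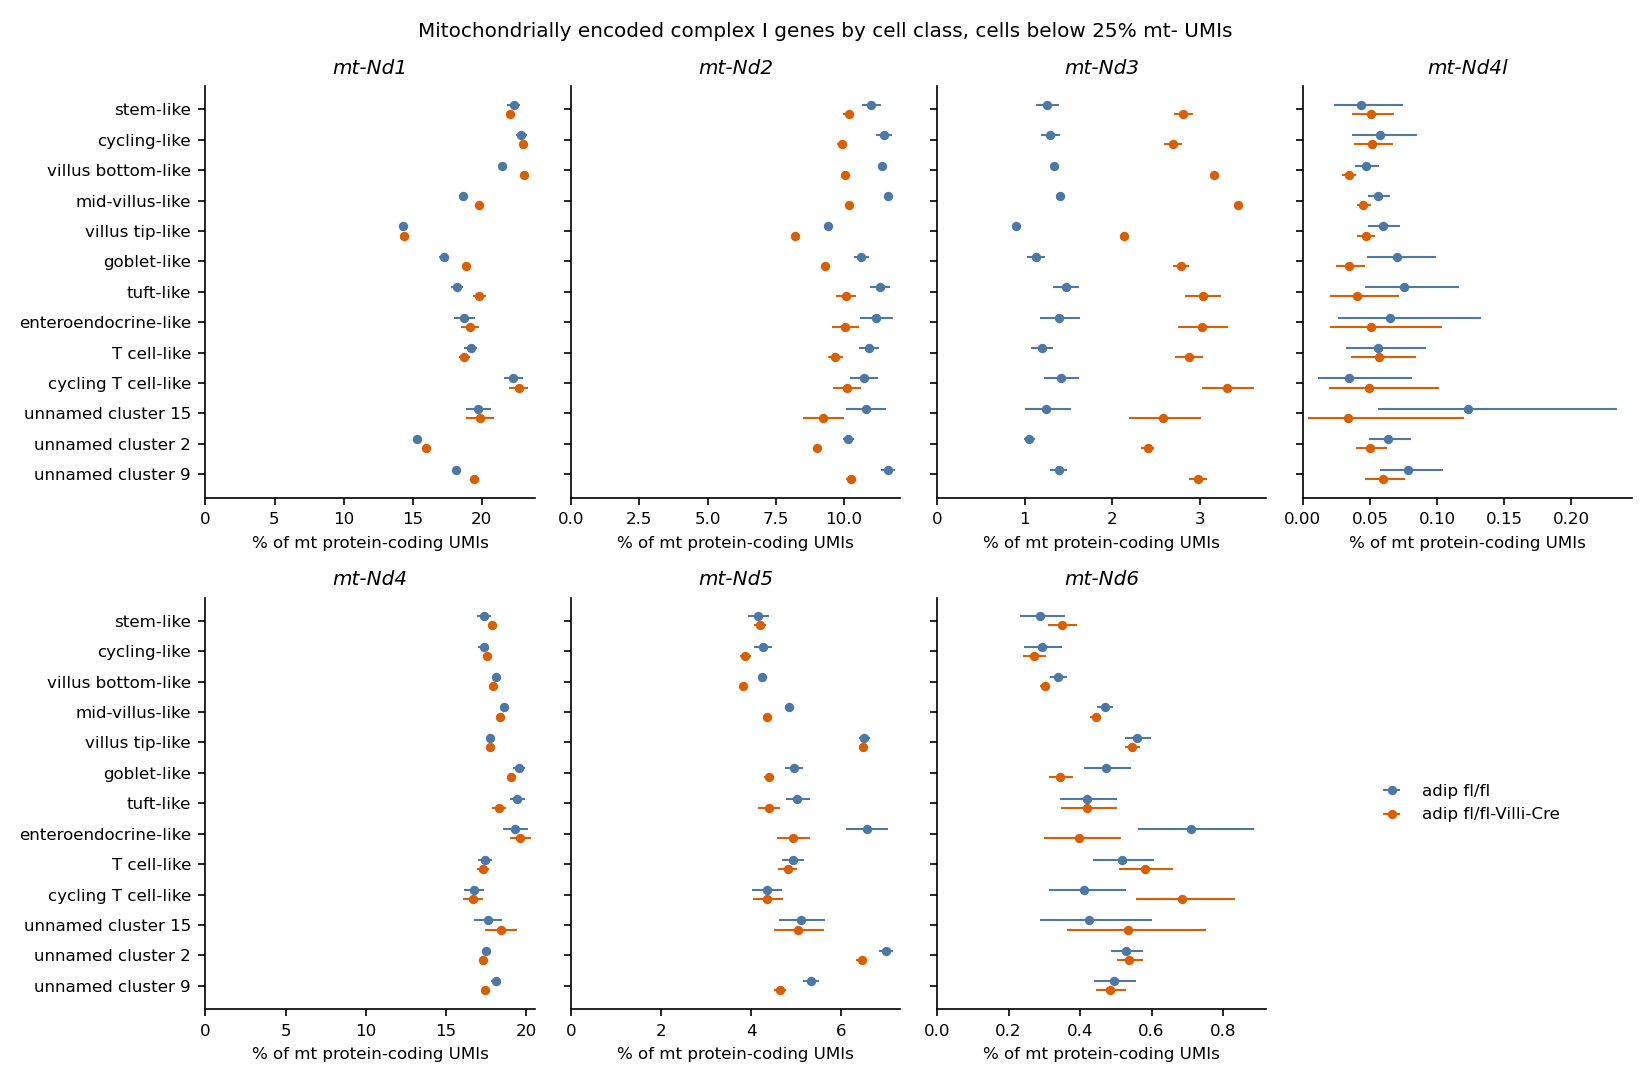
Share of each complex I gene among mitochondrial protein-coding UMIs (%) by cell class below 25% mt- UMIs; blue is adip fl/fl, orange adip fl/fl-Villi-Cre, and bars are exact 95% intervals of counting error. The colours are apart in every class for mt-Nd3, close in every class for mt-Nd4, and mt-Nd1 and mt-Nd5 vary more between classes than between libraries.

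In stem-like cells (41 and 119 cells), which held Olfm4 at 2229 and 3138 CPM, mt-Nd3 had 374 and 2450 UMIs. That was 1.256% (1.132 to 1.389) and 2.812% (2.703 to 2.924), a fold of 2.239 (2.007 to 2.503). In villus tip-like cells (864 and 2042 cells), the most mature enterocytes, it was 0.8982% (0.8534 to 0.9447) and 2.136% (2.093 to 2.179), a fold of 2.378 (2.251 to 2.513). The class is made of the same clusters in different proportions. Cluster 1, led by Ubd and Susd2, held 46.3 and 30.31% of it. Cluster 0, led by Clca4a and Slc23a4, held 31.13 and 43.78%, and cluster 3 held 22.57 and 25.91%. Within cluster 1 the fold was 2.387 and within cluster 0 it was 2.406, so in clusters 1 and 0 it was as large as over the class.

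T cell-like cells, a blood lineage in which the villin promoter is not known to be active, also held more mt-Nd3 in the Cre library, and whether their fold differs from that of epithelial classes was not tested. Their mt-Nd3 share was 1.196% (1.073 to 1.329, 340 UMIs) and 2.874% (2.714 to 3.041, 1172 UMIs), a fold of 2.403 (2.128 to 2.719). The class is made of 3 clusters in different proportions, since cluster 13 held 15.59 and 27.85% of it, cluster 8 held 56.18 and 47.37% and cluster 11 held 28.23 and 24.78%. The fold was 3.404 (2.436 to 4.877) within cluster 13, 2.418 (2.041 to 2.876) within cluster 8 and 2.059 (1.654 to 2.573) within cluster 11. These barcodes held Cd3e at 1249 and 1214 CPM, but also RNA of epithelium, with Vil1 at 128.3 and 253 CPM and the 5 enterocyte genes Apoa1, Apoa4, Fabp1, Fabp2 and Rbp2 at 3567 and 7954 CPM together. Of these 372 and 456 cells, 1 in each library had no UMI of these 5 genes. Among those at or under the median of their library for these genes, where they stood at 901.5 and 1236 CPM, the fold was 2.611 (2.116 to 3.237). Cycling T cell-like cells had 1.411 and 3.315%, a fold of 2.35 (1.989 to 2.784), with the 5 genes at 1645 and 2728 CPM. The goblet cell gene Muc2 stood at 41.66 and 650.3 CPM in T cell-like cells. In cycling T cell-like cells Muc2 stood at 24.93 and 1117 CPM. It was higher in the Cre library in every class except goblet-like cells (46892 and 40686 CPM). Stem-like cells held it at 169.8 and 483.8 CPM, cycling-like cells at 25.15 and 323.4 and tuft-like cells at 48.52 and 714.4. The part of goblet cell RNA in the folds of any class was not tested.

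The lower end of the order of classes was shared by both libraries, the upper end was not. Villus tip-like cells had the lowest mt-Nd3 share in both libraries, below the next class, unnamed cluster 2 (led by Plb1 and Tmigd1), with intervals that do not overlap. The highest share was in tuft-like cells in the control library and in mid-villus-like cells (3.44%) in the Cre library. All other neighbours in the order had overlapping intervals in both libraries. This order is of shares. Counted per all UMIs, mt-Nd3 was not lowest at the villus tip, with 460.7 and 1232 CPM there and 360.8 and 868.9 CPM in stem-like cells.

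mt-Nd2 had a lower share in the Cre library in 13 of 13 classes, with folds from 0.8556 to 0.9426 and an interval below 1 in 12. In stem-like cells it was 11.01% (10.66 to 11.37) and 10.19% (9.987 to 10.39), and in villus tip-like cells 9.44% (9.3 to 9.582) and 8.196% (8.116 to 8.278). This direction depends on what the share is taken of. Counted per all UMIs of the cells, the fold was above 1 in goblet-like (1.25), enteroendocrine-like (1.04) and T cell-like cells (1.12), where the mitochondrial genes together took up 1.427, 1.158 and 1.259 times as much of the UMIs in the Cre library. In enteroendocrine-like cells its interval (0.9636 to 1.126) includes 1. So do those in stem-like (0.9949, 0.9558 to 1.036), cycling-like (0.989, 0.9555 to 1.024) and cycling T cell-like cells (0.9663, 0.8987 to 1.039). In the remaining classes the interval per all UMIs lay below 1.

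Among the remaining members, mt-Nd1, mt-Nd5 and mt-Nd6 differed between cell classes along the crypt-villus axis. The share of mt-Nd1 was lowest at the villus tip and high in crypt and lower villus cells, but also in cycling T cell-like cells (22.29 and 22.67%). It had 22.33 and 22.06% in stem-like cells, 21.45 and 23.09% in villus bottom-like cells, 18.66 and 19.83% in mid-villus-like cells and 14.31 and 14.37% in villus tip-like cells. mt-Nd5 ran the other way, with 4.167 and 4.191% in stem-like cells and 6.52 and 6.497% in villus tip-like cells. It was about as high in unnamed cluster 2 (6.999 and 6.465%) and, in the control library alone, in enteroendocrine-like cells (6.573%). mt-Nd6, the neighbour of mt-Nd5 on the opposite strand, had 0.2888 and 0.3489% in stem-like and 0.5603 and 0.546% in villus tip-like cells. Control enteroendocrine-like cells (0.7109%) and T cell-like (0.5812%) and cycling T cell-like cells (0.6842%) of the Cre library stood higher, with overlapping intervals. In the other library each of these classes lay below villus tip-like cells. These orders are of shares, and the share of mt-Co1 was 9.989 and 10.63% in stem-like but 25.51 and 25.65% in villus tip-like cells. Per all UMIs, mt-Nd1 had 6416 and 6817 CPM in stem-like, 7340 and 8288 in villus tip-like and 2855 and 2977 in cycling T cell-like cells. From stem-like to villus tip-like cells, mt-Nd5 (1197 and 1295 to 3344 and 3748 CPM) and mt-Nd6 (82.96 and 107.8 to 287.4 and 315 CPM) kept their direction. mt-Nd4 was nearly level, between 16.73 and 19.56% over the 13 classes in the control library and between 16.67 and 19.64% in the Cre library. mt-Nd4l, with at most 316 UMIs in any class and library below the limit, separated few classes at this depth. All neighbours in its order had overlapping intervals, but in the Cre library villus bottom-like cells, at 0.03417% (0.02932 to 0.03959), lay below mid-villus-like cells at 0.04516% (0.04031 to 0.05042).

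Over the 13 classes the interval of the fold between libraries excluded 1 for mt-Nd1 in 6, for mt-Nd4 in 4, for mt-Nd5 in 8, for mt-Nd6 in 4 (1 higher and 3 lower) and for mt-Nd4l in 3. The lowest folds of mt-Nd5 and mt-Nd6 were in enteroendocrine-like cells (56 and 57 cells). mt-Nd5 was 6.573% (6.114 to 7.056) and 4.937% (4.583 to 5.311) there, and mt-Nd6 0.7109% (0.5614 to 0.8877) and 0.3964% (0.2988 to 0.5157). The class is made of cluster 18 (32 and 30 cells) and cluster 19 (24 and 27 cells). Among the single clusters the lowest folds were in cluster 18, at 0.6995 for mt-Nd5 and 0.3731 for mt-Nd6. RNA of other cell types also differed in this class, as it did in others. The goblet cell gene Muc2 stood at 65.98 and 2105 CPM and the 5 enterocyte genes at 8497 and 14018 CPM together. The part of such RNA in these values was not tested.

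Barcodes above the limit gave the same picture of mt-Nd3. Its share there was 1.186% (1.169 to 1.202, 19217 UMIs) and 2.795% (2.768 to 2.823, 37759 UMIs), a fold of 2.358 (2.317 to 2.399), and mt-Nd2 had 10.74 and 9.478%, a fold of 0.8826 (0.8763 to 0.889). In the 4 classes with at least 20 such barcodes in each library the fold of mt-Nd3 was between 2.319 and 2.441. Over bins of the mt- share it was 2.333 below 5%, 2.439 from 5 to 10%, 2.252 from 10 to 25%, 2.354 from 25 to 50% and 2.616 (2.472 to 2.768) from 50 to 75%, the last from 256 and 131 barcodes. The fold thus stayed above 2 over the whole range of mitochondrial content that could be read.

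**Figure D3:**
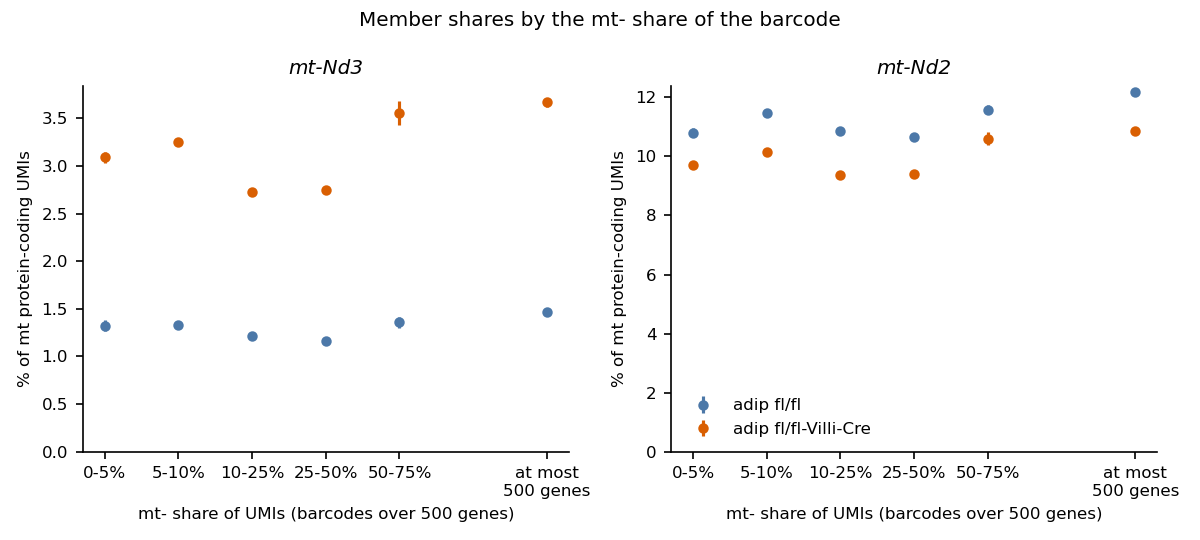
Share of mt-Nd3 and mt-Nd2 among mitochondrial protein-coding UMIs (%) by the mt- share of the barcode, with barcodes of at most 500 genes at the right; blue is adip fl/fl, orange adip fl/fl-Villi-Cre, and bars are exact 95% intervals of counting error. For mt-Nd3 the orange points lie at 2.727% or more and the blue points at 1.469% or less, and for mt-Nd2 the blue points lie above the orange ones in each bin.

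Barcodes on either side of the limit differed less in the share of mt-Nd3 than the libraries did, and the direction turned with the class. Per all UMIs, which the limit itself selects on, mt-Nd3 had 552.7 CPM below and 1412 above it in the control library. In the Cre library it had 1405 and 3186 CPM. Over all barcodes the mt-Nd3 share above the limit was 0.9412 times that below it in the control library and 0.9532 times in the Cre library, but within villus tip-like cells it was 1.272 and 1.241 times. mt-Nd1 behaved likewise, with 0.8618 and 0.8506 over all barcodes and 1.081 and 1.095 within villus tip-like cells. Villus tip-like barcodes were 3083 of 4670 and 3118 of 4263 above the limit and 864 of 3069 and 2042 of 5555 below it.

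In single barcodes the distributions were shifted as a whole. Among barcodes below the limit with at least 100 mitochondrial protein-coding UMIs (2184 and 4385), the median mt-Nd3 share was 1.099% in the control library, with 0.64 and 1.538% as the 25th and 75th percentiles, and 2.564% in the Cre library, with 1.705 and 3.386%. Of the barcodes of the control library 2.839% lay above the median of the other library, and of those of the Cre library 12.95% lay below the median of the control library. No mt-Nd3 UMI was found in 12.64 and 2.759% of them. mt-Nd2 overlapped far more, with medians of 10.48 and 9.198%. The spread within a library includes counting error of a few UMIs per barcode.

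**Figure D4:**
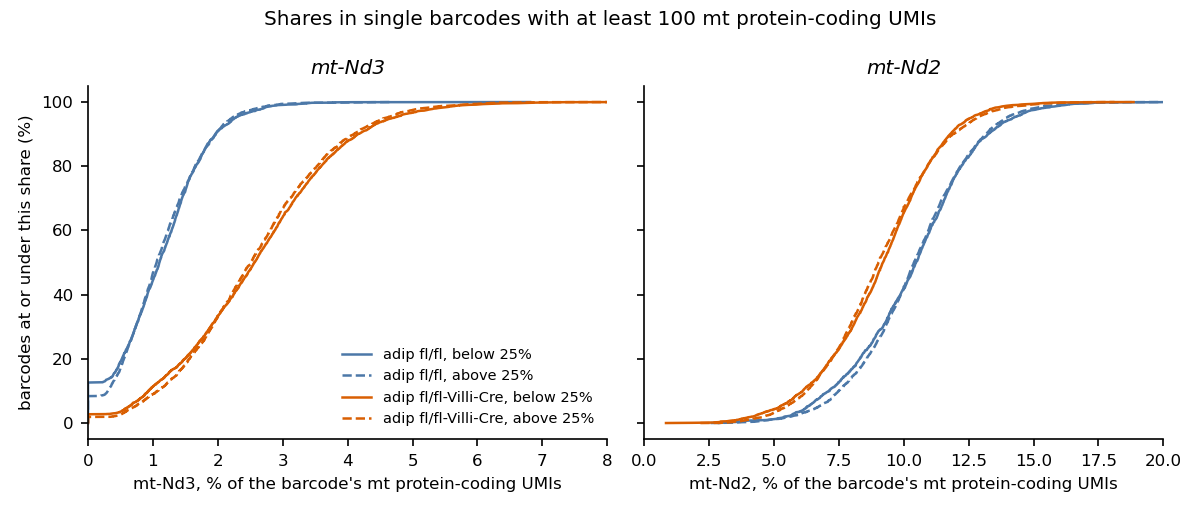
Cumulative percentage of barcodes (y) by the share of mt-Nd3 or mt-Nd2 among the mitochondrial protein-coding UMIs of the barcode (x, %), for barcodes with at least 100 such UMIs; blue is adip fl/fl, orange adip fl/fl-Villi-Cre, solid lines below and dashed lines above 25% mt- UMIs. The mt-Nd3 curves of the libraries are shifted apart along their length, with medians of 1.099 and 2.564% below the limit, and solid and dashed lines of a library nearly coincide.

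The nuclear genes of complex I did not share the difference. Levels were taken as CPM of all UMIs of a class, and a gene was past the fold at 1.5 or more, or at the inverse or less, if it had at least 50 CPM in the higher library and 20 UMIs in all. Of the 36 nuclear subunits on the lists, 35 could be read in stem-like, 35 in mid-villus-like, 14 in villus tip-like and 33 in T cell-like cells, and 0 were past the fold in either direction in any of them. Of the 7 members 6 could be read in each class, mt-Nd4l being too low, and in these 4 classes mt-Nd3 alone was past it, with a CPM fold of 2.409 in stem-like, 2.431 in mid-villus-like cells, 2.675 in villus tip-like and 3.025 in T cell-like cells. Of all 13 mitochondrial protein-coding genes, 11 could be read in stem-like cells, and 2 were past it upward there. Among all genes read, 1.51% were past it upward and 1.84% downward in stem-like cells, and 0.987% and 0.526% in mid-villus-like cells. At the villus tip these were 1.67% and 2.05%, and in T cell-like cells 6.52% and 1.72%.

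Over all 13 classes mt-Nd3 was past the fold upward in 13, and a pair of other members passed it in single classes. mt-Nd1 did in goblet-like cells, with 4048 and 6325 CPM (fold 1.563, 1.523 to 1.604), where 8.57% of the genes read were past it upward and 1.48% downward. mt-Nd6 was past it downward in enteroendocrine-like cells, with 181.4 and 117.2 CPM (0.6458, 0.4484 to 0.9247), against 13.6% of genes upward and 7.7% downward there. In cycling T cell-like cells mt-Nd6 was past it upward, with 52.53 and 89.85 CPM (1.711, 1.225 to 2.406), against 3.89% upward and 2.92% downward.

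The median log2 ratio of the nuclear subunits was -0.03 in stem-like cells (-0.01 over all genes read), 0.05 in mid-villus-like (0.02), -0.08 in villus tip-like (0.02) and -0.05 in T cell-like cells (-0.05). The widest departures were small beside mt-Nd3. In stem-like cells Ndufa9, an accessory subunit, had 154.3 and 116.7 CPM (fold 0.756, 0.624 to 0.919), and in T cell-like cells Ndufs8, a core subunit that binds iron-sulfur clusters, had 116.2 and 79.36 CPM (0.6829, 0.5538 to 0.841). In villus tip-like cells Ndufs7, a core subunit near the ubiquinone site, had 61.36 and 51.42 CPM (0.838, 0.7049 to 0.9989) and Ndufa2 129.5 and 145 CPM (1.119, 0.9996 to 1.256). These 4 genes were picked for their values.

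**Figure D5:**
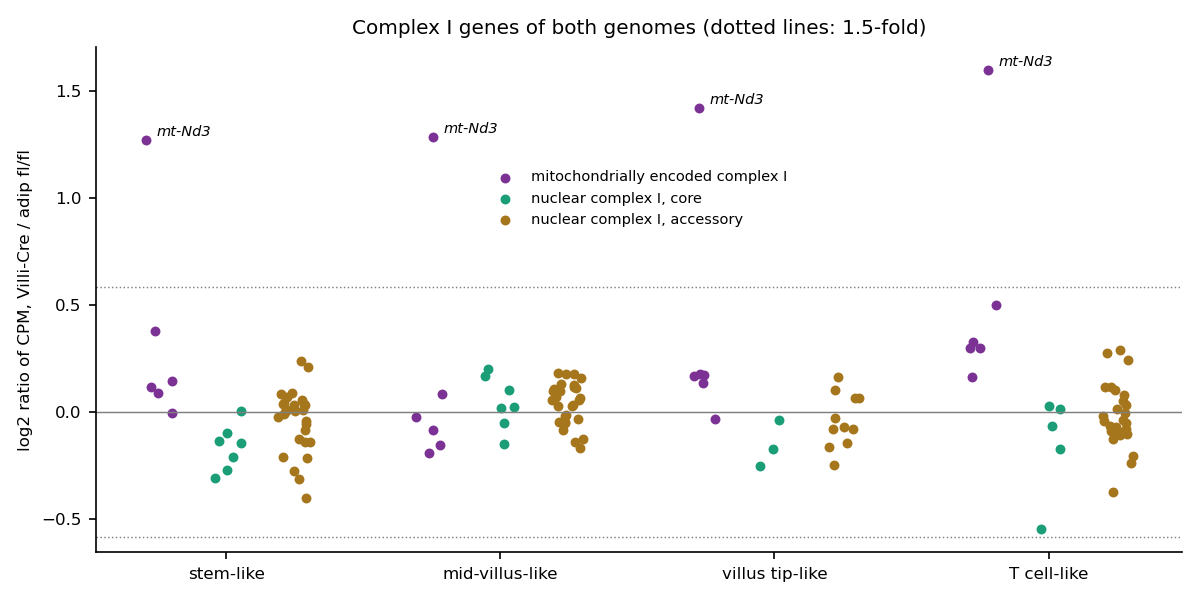
log2 ratio of CPM (adip fl/fl-Villi-Cre over adip fl/fl) of the complex I genes that could be read in 4 cell classes; purple points are mitochondrially encoded, green the nuclear core and brown the nuclear accessory subunits, the solid line is no difference and the dotted lines are 1.5-fold. mt-Nd3 is the only point outside the dotted lines, with folds of 2.409, 2.431, 2.675 and 3.025.

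The helpers of the complex and of mitochondrial RNA were mostly too low to read. Of 17 assembly factors, 5, 1, 1 and 2 could be read in stem-like, mid-villus-like, villus tip-like and T cell-like cells, and 0 were past the fold. Of 25 genes of mitochondrial transcription and RNA processing, 11, 2, 0 and 3 could be read. The 1 past the fold was Fastk, whose protein acts on mitochondrial RNA, with 53.05 and 34.05 CPM in stem-like cells (fold 0.6417, 0.456 to 0.911, named after its values were seen). Nnt, a nuclear gene of a mitochondrial enzyme that is partly deleted in some C57BL/6 substrains, had 2 and 20 UMIs in stem-like, 11 and 16 in mid-villus-like cells, 2 and 6 in villus tip-like cells and 12 and 2 in T cell-like cells, too few to compare. UMIs assigned to the genes of mitochondrial transfer RNAs were more frequent in the Cre library almost throughout. Whether they stand for transfer RNAs already cut from the precursor was not tested. Per mitochondrial protein-coding UMI, 21 of 22 of these genes had a fold above 1 below the limit, 13 of them with an interval above 1. An interval below 1 was found for 1 gene. The same count over all genes was not taken, so these counts have no background beside them. The median fold was 1.344. The pair of these genes on either side of mt-Nd3 lay above that median. mt-Tg had 1.585 (1.211 to 2.098, 71 and 234 UMIs) and mt-Tr 1.703 (1.315 to 2.227, 76 and 269 UMIs). The range of the 22 ran from 0.8137 for mt-Tt to 1.9 for mt-Ts1. The ribosomal RNA genes went the other way, with 0.8734 (0.8697 to 0.8771) for mt-Rnr1 and 0.8543 (0.8522 to 0.8564) for mt-Rnr2. These transfer and ribosomal RNAs were chosen after their values were seen.

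Few genes of any kind followed mt-Nd3 from class to class. Of 908 genes that could be read in all 13 classes, 2 were at least 1.5-fold higher in CPM in every class, mt-Nd3 (1.887 to 3.536) and the metallothionein gene Mt1 (2.244 to 61.09, named after its values were seen), and 0 were at least 1.5-fold lower in every class. By the root mean square difference of their log2 CPM ratios over the 13 classes, the 5 genes nearest to mt-Nd3 were Clca4a (0.6787), Ada (0.7199), Slc5a1 (0.7556), Spink1 (0.8244) and Pls1 (0.8452), so that the nearest still lay more than 0.6 log2 units away on average.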

How the data were processed

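The authors deposited raw UMI counts per gene and barcode (10x Genomics 3′ kit, 1 library per genotype), made with bcl2fastq 5.0.1 and Cell Ranger on mm10, without normalization and before the filter on genes and mitochondrial share. Dead cells had been removed with magnetic beads. How reads that match several places or strands were counted is not given in the sources used here. The stated filter (more than 500 genes, under 25% mt- UMIs) left fewer cells than the study retained.

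Cells under the limit were clustered in Seurat 5.3.0 (R 4.3.3; LogNormalize with scale factor 10000, 2000 variable genes, 20 components, Louvain resolution 0.8, crypt clusters split at 0.4) with mt- genes left out, so that the members did not shape the clusters. A class name needed 3 markers, each at least 2-fold higher with at least 10 UMIs. A cluster stayed unnamed where another list had as many markers among its 10 leading genes. The stem-like cluster also held cycling and Paneth markers and the goblet-like cluster Paneth markers, and names may differ from the authors'. Barcodes above the limit took the class of most of their 20 nearest neighbours. Of 4312 cells below the limit named by such a vote, 96.94% kept their class, but these cells had themselves shaped the components and classes. How well the names hold above the limit was therefore not tested. Doublets were not removed. UMIs were summed per class and library. Shares have exact Clopper-Pearson 95% intervals and folds exact conditional ones, and both cover counting error only. Where a gene had 0 UMIs in a library, its fold was computed against 3 UMIs. Copies were found with BLAST 2.17.0 in the transcripts of GENCODE M21 (GRCm38), at 90% identity or more. The other tools were scipy 1.17.1, numpy 2.4.6, scanpy 1.11.5 (for Scrublet scores), matplotlib 3.10.9 and pandas 2.3.3 under Python 3.11.15, and the fold calculation was tested on simulated data.

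The members, lists and rules were chosen with earlier results of these data known. The genes named are the 7 members, the 6 other mitochondrial protein-coding genes, Nnt, annotated copies of members, listed genes past 1.5-fold in villus tip-like or mid-villus-like cells (at most 6), and the 5 genes nearest to mt-Nd3; markers and genes that lead a cluster are named to describe it, and any other gene is said to be chosen after its values were seen.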

Additional observations from a re-analysis of the deposited data

Results flagged for a closer look

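In barcodes with at most 500 genes (2052 and 2020), which entered no class or comparison, the share of mt-Nd3 was 3.666% (3.621 to 3.711) in the Cre library, above the 1.469% (1.441 to 1.498) in the control library. The fold was 2.495 (2.438 to 2.553). These barcodes had a median of 1326 and 1220 UMIs and a median mt- share of 73.91 and 73.2%.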

How the results depend on the processing

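In all 204 alternative values of the 15 mt-Nd3 folds, mt-Nd3 was higher in the Cre library, between 1.86 and 4.71, and 170 lay within the interval of the reported value. In stem-like cells, all did. In villus tip-like cells the fold of 2.38 became 3.39 with a limit of 10% (13 and 19 cells), 2.67 per all UMIs and per UMIs that are not mt-, 2.71 per all mt- UMIs and 2.55 in the barcodes with the least enterocyte RNA. In T cell-like cells 2.4 became 3.02 per all UMIs and 3.05 per UMIs that are not mt-. In barcodes above the limit 2.36 became 2.31 with a limit of 10%, 2.26 per all UMIs, 2.16 per UMIs that are not mt-, 2.45 per all mt- UMIs and 2.3 with equal weight per cell. Adding the UMIs of the nuclear copy, too few to move a fold and an alternative chosen after the data were seen, gave 2.24, 2.38, 2.39 and 2.36 in stem-like, villus tip-like and T cell-like cells and above the limit. No nuclear complex I gene on the lists was past 1.5-fold in mid-villus-like or villus tip-like cells with a minimum of 10 CPM or with CPM of UMIs that are not mt-.

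The smaller differences turned with the denominator. The fold of the other 6 members in villus tip-like cells, 0.974, became 1.1 per all UMIs, 1.09 per UMIs that are not mt- and 1.11 per all mt- UMIs. Below the limit, mt-Nd4 became 1.08 per all UMIs and per UMIs that are not mt-, 1 per the 6 other mt protein-coding genes and 1.07 per all mt- UMIs. mt-Nd5 became 1.01, 1.01 and, per all mt- UMIs, 1, and mt-Nd6 1.04, 1.04 and 1.03, with 1.07 at a limit of 10% and 1.05 with equal weight per cell. Above the limit, mt-Nd1 became 0.988 per all UMIs and 0.947 per UMIs that are not mt-, and mt-Nd4 1.03 per all mt- UMIs. For mt-Nd2, 13 of 189 alternative values lay above 1. Among them were values in goblet-like cells (1.25 per all UMIs, 1.26 per UMIs that are not mt-, 1.06 per all mt- UMIs). Enteroendocrine-like cells had 1.04, 1.04 and 1.1, and 1.01 in the barcodes with the least enterocyte RNA. T cell-like cells had 1.12 per all UMIs and 1.13 per UMIs that are not mt-. Unnamed cluster 15 had 1.08 per all mt- UMIs, and unnamed cluster 2 had 1.16 at a limit of 10% (6 and 8 cells). The cause of these changes was not tested.

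Alternatives of clustering and naming were not applied to barcodes above the limit. No replicate was there to leave out, and no paired analysis was possible because each genotype has 1 library. No depth removes that limit, and intervals describe these libraries only.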
